A study of Homo sapiens with 10 samples.

Results

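The genes described here stood apart on days 5 and 7 of the hepatic differentiation of H1 cells, a widely used human embryonic stem cell (hESC) line, while FGF4 and BMP2 were in the medium. A gene was taken as higher when its value on both of these days exceeded its value on each of 4 flanking days, days 2 and 3 before and days 11 and 13 after, and as lower when both values lay below all 4. Of the 12125 genes in the table, 10054 reached a value of 50 on at least 1 of these 6 days and were compared. Of these, 921 were higher (9.16% of the genes compared) and 702 were lower (6.98%), which makes 1623 genes in all. These shares are the background of every count below, and the values that chose the genes are a description with no test.

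RNA-seq was made from 1 library per day and no day was repeated. All cultures were serum free. Days 1 to 3 received Activin A at 100 ng per ml in medium without insulin, days 5 and 7 received 30 ng per ml of FGF4 and 20 ng per ml of BMP2 in medium with insulin, and days 9 and 11 received HGF and KGF at 20 ng per ml each, also with insulin. The label of day 13 gives Oncostatin M at 20 ng per ml, whereas the protocol of 3, 4 and 6 days still has HGF and KGF on day 13. Day 0 was the untreated hESC culture, and day 21 the end of the Oncostatin M step in hepatocyte medium. All libraries come from 1 cell line, and days of the same step are successive samples rather than replicates. Growth factors and the age of the culture differ together between steps, and so does insulin between days 3 and 5, and these cannot be told apart.

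Bone morphogenetic proteins (BMPs) are secreted dimers that signal through receptor kinases and SMAD proteins, and fibroblast growth factors (FGFs) signal through receptor tyrosine kinases. In the embryo both come from tissue next to the ventral foregut, where they help endoderm to take a liver fate. Cells that receive BMP switch on ID genes, which encode inhibitors of DNA-binding helix-loop-helix factors, together with inhibitory SMADs and secreted antagonists that limit the signal.

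The deposited values are GC-normalized whole numbers, called values here, and not read counts. The library totals lay between 2330948 and 2362740, the depth of a library cannot be read from them, and the values from 2164 upwards lie in 10 narrow levels common to the libraries, none wider than 12 with gaps of at least 153 between them. Differences are on the log2(value + 1) scale, which understates the change of low genes. The margin of a higher gene is the smaller of its days 5 and 7 minus the largest flanking day on that scale, and that of a lower gene is the smallest flanking day minus the larger of days 5 and 7. A margin of 1 was reached by 80 higher genes (0.796% of the genes compared) and 34 lower genes (0.338%). The median margin was only 0.21 for the higher genes and 0.18 for the lower. As a measure of how far neighbouring days differ, the margin exceeded the differences between days 2 and 3, between days 5 and 7 and between days 11 and 13 in 212 of the 921 higher genes and 147 of the 702 lower genes. These are called differences within a step below, although by its label day 13 belongs to another step than day 11. The counts lean on having both days of the stage: with day 5 left out 1906 genes were higher and 1748 lower, and with day 7 left out 1823 were higher and 1508 lower.

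**Figure D1:**
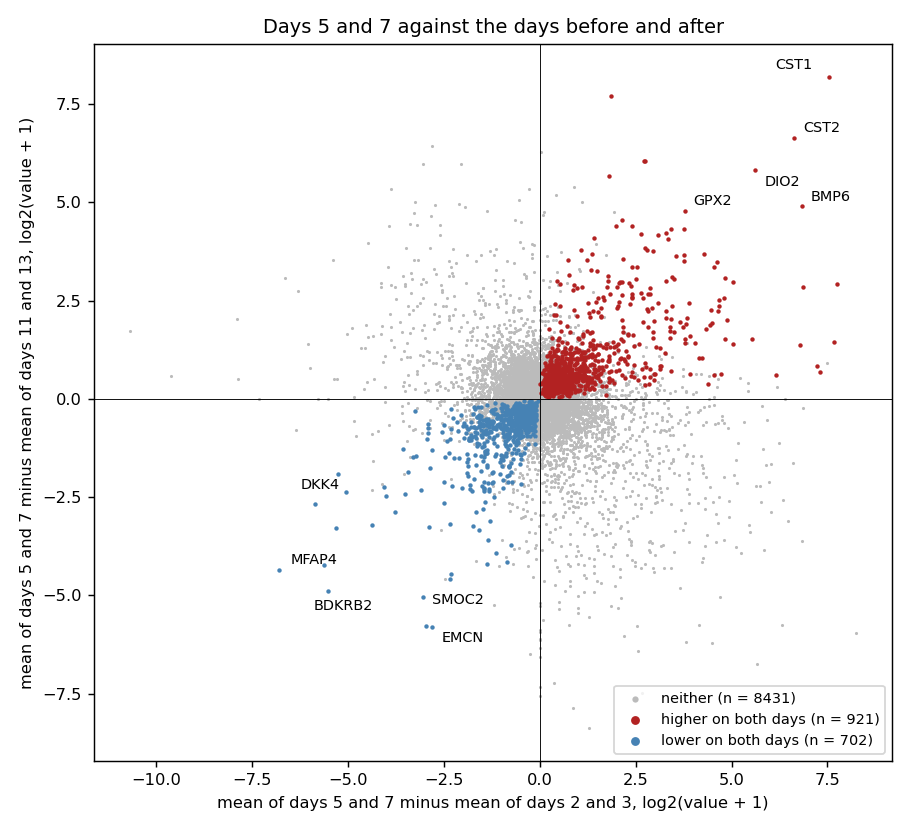
Each point is 1 of the 10054 genes compared, with the mean of days 5 and 7 minus the mean of days 2 and 3 on the horizontal axis and minus the mean of days 11 and 13 on the vertical axis, both on the log2(value + 1) scale. The 921 higher genes (red) lie at the upper right and the 702 lower genes (blue) at the lower left, with CST1, CST2, DIO2 and BMP6 farthest out among the labelled higher genes.

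The 2 genes proposed as markers of the stage were high on its days. CST1, which encodes the secreted cysteine protease inhibitor cystatin SN, was at 5 and 37 on days 2 and 3, at 6493 and 1214 on days 5 and 7, and at 12 and 6 on days 11 and 13. GPX2, the glutathione peroxidase of the gut epithelium, was at 4 and 8, then at 92 and 90, and then at 10 and 0. Their margins were 5.00 and 3.05. CST1 was also low on the days outside the comparison, at 4, 0, 52 and 24 on days 0, 1, 9 and 21, and GPX2 was at 0, 0, 30 and 0. These are single libraries, and the genes were proposed with these values known. Other genes of the foregut and liver did not form 1 pattern, so the stage is called here by its medium and its day. SOX2, a factor of the anterior foregut and of stem cells, was at 2 and 0 on days 5 and 7, against 146 and 82 on days 2 and 3. HHEX, needed for the liver bud, was at 28 and 79 on days 5 and 7, below its 106 and 139 on days 2 and 3. The sample labels name days 5 and 7 as presumed hepatoblasts, whereas the paper places its hepatoblast stage, marked by HNF4A and AFP, at day 13. The hepatocyte factor HNF4A, at 18 and 28 on days 2 and 3, was at 299 and 1044 on days 5 and 7. It stayed at 918 and 838 on days 11 and 13. AFP was at 44 and 33 on days 2 and 3 and at 342 on day 5. On day 7 it was at the top level of 18734, as on days 11 and 13.

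The upstream sequences of 4 higher genes are shown because they are a marker of the stage and members of the BMP response group, whose 11 genes compared were higher. They are the 250 bases before the RefSeq start site in GRCh38.p14, written 5′ to 3′ on the strand of the gene. Capitals mark a searched motif on either strand.

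GPX2: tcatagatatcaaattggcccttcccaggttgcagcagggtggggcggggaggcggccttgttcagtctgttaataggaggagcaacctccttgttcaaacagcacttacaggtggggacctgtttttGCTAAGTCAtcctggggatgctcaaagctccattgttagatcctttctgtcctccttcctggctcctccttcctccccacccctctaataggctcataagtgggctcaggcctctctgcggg
SMAD6: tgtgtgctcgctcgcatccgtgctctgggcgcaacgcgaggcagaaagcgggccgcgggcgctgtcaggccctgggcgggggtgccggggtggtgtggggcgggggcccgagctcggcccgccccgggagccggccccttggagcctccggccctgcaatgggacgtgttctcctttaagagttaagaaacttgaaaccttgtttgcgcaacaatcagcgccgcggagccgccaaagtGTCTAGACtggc
BAMBI: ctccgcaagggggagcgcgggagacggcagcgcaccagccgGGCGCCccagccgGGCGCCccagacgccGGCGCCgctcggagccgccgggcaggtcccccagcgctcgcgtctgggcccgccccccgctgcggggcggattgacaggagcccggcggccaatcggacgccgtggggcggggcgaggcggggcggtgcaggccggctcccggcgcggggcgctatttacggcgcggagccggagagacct
ID4: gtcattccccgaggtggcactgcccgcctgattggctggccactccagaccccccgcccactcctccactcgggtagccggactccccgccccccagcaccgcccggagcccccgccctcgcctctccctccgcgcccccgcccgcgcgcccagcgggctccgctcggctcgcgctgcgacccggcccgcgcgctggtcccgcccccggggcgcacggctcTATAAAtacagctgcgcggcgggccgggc

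The GPX2 window (chr14:64942746-64942995, minus strand) holds TGACNNNGC, the letters of the antioxidant response element, once and on the other strand. The SMAD6 window (chr15:66701986-66702235, plus strand) holds GTCTAGAC, a palindrome bound by SMAD proteins, once. In the BAMBI window (chr10:28677271-28677520, plus strand) GGCGCC, a GC-rich SMAD element, occurs 3 times. The ID4 window (chr6:19837120-19837369, plus strand) holds TATAAA, the TATA box, once. Windows were found for 7428 of the 10054 genes compared, 11080 windows in all. TGACNNNGC was found in 11.5% of them, GTCTAGAC in 0.11%, GGCGCC in 25.0% and TATAAA in 5.79%. In the 1066 windows of the higher genes the same motifs were in 10.6%, 0.28%, 23.7% and 6.85%. In the 112 windows of higher genes with a margin of 1 they were in 8.93%, 0.89%, 22.3% and 12.5%, and in the 19 windows of the 11 BMP response genes in 10.5%, 5.26%, 31.6% and 21.1%. In these 19 windows GTCTAGAC was found in only 1, that of SMAD6 shown above, and TATAAA in 4. The differences between these shares were not tested. Each gene shown holds a marked motif, so the genes shown do not stand for their group. AGATAA, the letters of a GATA site, was also searched and was in 5.2% of all windows, 6.85% of those of the higher genes and none of the 19. A match describes letters in these windows only. No sequence is shown for CST1 and CST2.

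CST2 had the largest margin of all higher genes. It was listed at 0 on all 4 flanking days and at 242 and 40 on days 5 and 7, so no fold can be given. CST1 and CST2 are neighbouring copies of the salivary cystatin genes, at chr20:23728190-23731574 and chr20:23804406-23807368 in the table, which names no build. Their transcripts in GENCODE release 29 were 91.3% identical over 748 aligned bases, and those of CST1 and CST4, a copy not analysed here, were 94.7% identical, so reads could be shared among these genes and the values of CST1 and CST2 are uncertain. Of the 4 cystatin genes compared CST1 and CST2 were higher. CST3, the cystatin C of most cells, was at 733 and 550 on days 5 and 7 and still at 508 and 589 on days 11 and 13.

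After the cystatins came DIO2, the deiodinase that makes active thyroid hormone, at 1 and 1 before, at 209 and 45 on days 5 and 7, and at 2 and 0 after, a margin of 3.94. BMP6 was at 6 and 1, then at 456 and 400, and then at 40 and 4, a margin of 3.29. The other higher genes with a margin above 2 included ECM1 (extracellular matrix protein 1), the collagen chain COL11A2, the lysophosphatidylinositol receptor GPR55, the sialomucin PODXL, the calcium release channel RYR3, the growth factor binding protein IGFBP5 and the vasodilator peptide ADM. PODXL was at 936 and 1130, then 18734 and 6498, then 696 and 438, and on day 0 it was at 3433, above all flanking days. ADM was at 164 on both days before, at 684 and 724 on days 5 and 7, and at 118 and 67 after. IGFBP5 was at 360 and 325 on days 5 and 7 and reached 1158 on day 21, so this gene was transient only over the 6 days compared. FGFR1, a receptor for FGFs, stood at the same shared level of 3433 on days 5 and 7, against 576 and 410 before and 853 and 346 after. The remaining genes among the 30 of largest margin were RGAG1, FAM198B, GNG2, DDIT4L, BMPER, FBLN2, RP11-54O7.3, TNFRSF19, BMP7, ID4, ADD3, DENND2C, UGT3A2, SLCO2A1, MSX2, RELN and CRHBP, with margins from 1.75 for CRHBP to 2.52 for RGAG1. CRHBP, which binds corticotropin-releasing hormone, was mostly a day 5 gene, at 282 and 26 on days 5 and 7 and at 5 to 7 on the flanking days.

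**Figure D2:**
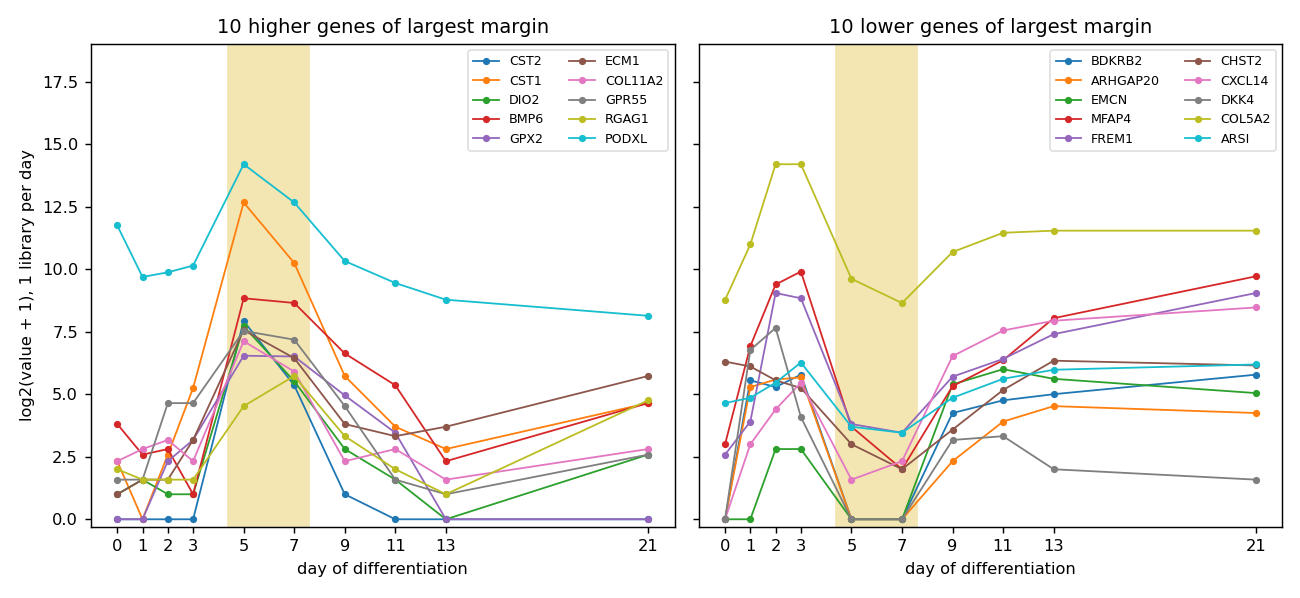
Lines give log2(value + 1) by day of differentiation, 1 library per day, for the 10 higher genes (left) and the 10 lower genes (right) with the largest margin, and the shaded band marks days 5 and 7. CST1 reached 6493 on day 5, and BDKRB2, ARHGAP20, EMCN and DKK4 were listed at 0 on both days of the band.

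Large margins were fewer among the lower genes. BDKRB2, the bradykinin B2 receptor, was at 38 and 54 on days 2 and 3, listed at 0 on days 5 and 7, and at 26 and 31 on days 11 and 13. ARHGAP20, a GTPase-activating protein, was at 47 and 50, then listed at 0 on both days, and then at 14 and 22. EMCN, an endothelial sialomucin, and DKK4, a secreted WNT antagonist, were also listed at 0 on days 5 and 7. EMCN was at only 6 on both days before and at 63 and 48 after. DKK4 was at 200 and 16 before and at only 9 and 3 after. Several of the lower genes encode secreted matrix proteins. MFAP4, a microfibril protein, was at 668 and 956 before, at 12 and 3 on days 5 and 7, and at 81 and 262 after, a margin of 2.66. FREM1, a basement membrane-associated protein of embryonic epithelia, was at 527 and 456, then 13 and 10, then 84 and 168, a margin of 2.60. COL5A2, a fibrillar collagen chain, was at 18734 on both days before, at 782 and 399 on days 5 and 7, and at 2802 and 2972 after. The chemokine CXCL14 was at 20 and 43, then 2 and 4, then 186 and 244. The other genes among the 20 of largest margin were CHST2, ARSI, LDB2, TFPI2, ELOVL2, LRIG1, NEURL1B, SMOC2, APOL2, SEMA6D, EPS8 and NBL1, with margins from 1.51 to 2.17. MFAP4 and LRIG1 overlap another gene of the table on the opposite strand, and whether counting used strand is not given in the sources used here.

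The lowest margins show how thin the rule is at its edge. FGD6 was just inside as higher at 444 and 285 on days 5 and 7 with 284 on day 3, a margin of 0.0051. GPX1, the widespread glutathione peroxidase, was just inside as lower at 390 and 324 with a lowest flanking value of 392, a margin of 0.0074. ABCD3, at 131 and 124 on days 5 and 7 and 124 on day 2, tied with a flanking day and stayed outside, as did 81 genes in all on the higher side and 101 on the lower. ACTB was a tie among the shared top levels, at 18734 on 5 of the 6 days and 4855 on day 5.

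The BMP response group was higher as a whole. Of its 11 genes compared, 11 were higher and 0 lower, against 9.16% of all genes compared, and 5 had a margin of 1. The median difference between the mean of days 5 and 7 and the mean of the 4 flanking days was 2.07, against 0.015 over all genes compared. The list was written with earlier results of these data known, and a twelfth gene of it, the antagonist NOG, stayed below 50 on these days. Among the ID genes, ID4 was at 20 and 20, then 146 and 161, then 34 and 16, a margin of 2.07. ID3 was at 295 and 198, then 1000 and 530, then 204 and 103, a margin of 0.84. ID1 and ID2 met the rule by less, since ID1 was already at 619 on day 2 with 628 on day 7, and ID2 was still at 460 on day 11 after 568 and 1000 on days 5 and 7. The inhibitory SMAD6 was at 90 and 102, then 584 and 310, then 128 and 86, a margin of 1.27. SMAD7, the other inhibitory SMAD, was nearly level, with 163 on day 2 and 165 on day 5 and a margin of 0.017. SMAD9, a SMAD activated by BMP receptors, was at 108 on day 5 against 91 on day 11, a margin of 0.24. MSX2, a homeodomain factor induced by BMP, was at 28 and 31, then 352 and 188, then 54 and 40. GATA3, a zinc finger factor, was at 16 and 28, then 388 and 261, then 103 and 56. BAMBI, a decoy receptor, was at 714 and 669 on days 5 and 7 and had a margin of 0.44, since it stayed at 442 and 494 on days 11 and 13. BMPER, a secreted BMP-binding protein, was at 10 and 14, then 474 and 186, then 38 and 21, a margin of 2.26.

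The ligands and antagonists of the same pathway were grouped after their values were seen. Of 13 ligands of the TGFβ superfamily compared, BMP5, BMP6, BMP7, GDF11 and GDF15 were higher and 0 were lower. BMP7 was at 24 and 28, then 190 and 124, then 26 and 12, a margin of 2.11. BMP5 was at 0 and 4, then 78 and 67, then 33 and 22, a margin of 1.00. BMP2 itself, the protein in the medium, did not meet the rule as a transcript, at 684 and 424 on days 5 and 7 with 450 on day 3. BMP4 was at 31 and 137 on days 5 and 7 and above both on days 11 and 13, at 234 and 276. Of 9 antagonists compared BMPER, FST and BAMBI were higher and NBL1 lower, with BMPER and BAMBI also in the group above. FST, which binds activins, was at 102 and 238, then 669 and 652, then 132 and 54, a margin of 1.45. NBL1, a secreted antagonist of the DAN family, was at 66 and 255, then 12 and 2, then 36 and 89. Of 14 receptors for FGF, BMP, activin and TGFβ compared, FGFR1 was higher and 0 were lower.

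FGF response genes showed no single pattern. Of 17 compared, DUSP5, SPRY2 and SPRED2 were higher, ETV1 was lower, and the median difference was 0.43. SPRY2, a feedback inhibitor of the receptor pathway, was at 210 and 246, then 398 and 309, then 240 and 157, a margin of 0.33. The phosphatase DUSP6 was at 840 on day 5 but at 140 on day 7, between 478 and 314 before and 85 and 136 after. ETV4, an ETS factor, was at 120 and 48 on days 5 and 7, below 271 and 256 before and above 30 and 20 after. Of 17 genes of the activin and nodal response 0 were higher and 0 lower, and their summed value was 29774 and 40991 on days 2 and 3, 2743 and 1606 on days 5 and 7, and 1146 and 732 on days 11 and 13.

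Genes of the WNT pathway were found on both sides. Of 15 WNT response genes compared, TNFRSF19 and FRZB were higher (13.3%) and DKK4 was lower (6.7%). These shares are near the 9.2% and 7.0% of all genes compared. TNFRSF19, a receptor of the TNF family, was at 9 and 22, then 211 and 102, then 8 and 6. FRZB, a secreted frizzled-related inhibitor, was at 2643 and 2802 on days 5 and 7 and at 2438 on day 13, a margin of 0.12 within the shared top levels. Among 20 WNT ligands, receptors and secretion factors, grouped after their values were seen, RSPO3, PORCN, FZD3, FZD4 and RYK were higher and FZD2, FZD5 and FZD8 lower. RSPO3, which amplifies WNT signalling, was at 16 and 20, then 298 and 960, then 96 and 40, a margin of 1.62. PORCN, the acyltransferase that makes WNT proteins active, was at 37 and 106, then 606 and 301, then 30 and 28, a margin of 1.50. FZD5, a WNT receptor, was at 642 and 1108, then 36 and 165, then 288 and 282, a margin of 0.77.

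Of 13 liver and foregut factors compared, 4 were higher, among them TBX3, FOXA3 and GATA4, none by a margin of 1, and 0 were lower. TBX3, a T-box factor of the liver bud, was at 52 and 42, then 470 and 768, then 262 and 91, a margin of 0.84. GATA4 was at 530 and 354 on days 5 and 7, after 160 and 268 and before 244 and 184. FOXA2, a pioneer factor of endoderm, was at 184 on day 5 and 343 on day 7 with 200 on day 2, and so met neither rule. Of 4 other gut factors ISL1 was higher, at 6 and 3, then 50 and 32, then 13 and 13, a margin of 1.24. CDX2, an intestinal factor, was listed at 0 before, was at 48 and 116 on days 5 and 7, and was at 138 and 197 after. PITX1, a homeodomain factor chosen after its values were seen, was listed at 0 on days 0 to 3, was at 242 and 173 on days 5 and 7, and was at 70 and 80 after, a margin of 1.10.

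Secreted liver products were mostly still low on day 5. Of 19 compared APOE was higher, at 3428 on both days of the stage against 2796 on both days after, and 0 were lower. The summed value of the list was 7459 on day 5 and 44656 on day 7, against 64964 and 67358 on days 11 and 13. Of 17 epithelial genes, EPCAM and the protease ST14 were higher and 0 lower. EPCAM, an epithelial adhesion molecule, was at 390 and 642, then 1279 and 1108, then 936 and 790. Of 8 mesenchymal genes 0 were higher and only TCF4, a helix-loop-helix factor, was lower, at 191 and 136, then 54 and 86, then 284 and 314, a margin of 0.66. The list as a whole did not dip, since 5 of the 8 had a difference above 0. CDH2 was at 2168 and 3431, then 3431 on both days, then 2638 on both days. VIM was at 1437 and 2168, then 2434 and 2168, then 3865 and 4862.

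Matrix genes were counted in 2 lists made after their values were seen, and the difference between the lists was not tested. Of 19 basement membrane genes compared, LAMA1, COL4A1, COL4A5, COL4A6, COL18A1, AGRN, PXDN and HSPG2 were higher and 0 lower, against 9.16% and 6.98% of all genes compared. FREM1, described above as lower, was not in this list. LAMA1, the laminin chain of early embryonic basement membranes, was at 325 and 320, then 3429 on both days, then 1435 and 650, a margin of 1.26. COL4A1, a collagen IV chain, was at 541 and 1000, then 6499 on both days, then 3434 and 2026, a margin of 0.92, and it overlaps COL4A2 in the table. PXDN, which crosslinks collagen IV, was at 790 and 1130, then 2429 and 2428, then 1734 and 1640. Of 24 interstitial matrix genes 3 were higher (FBLN2, FBN2 and EMILIN2) and 4 lower (COL5A2, COL6A1, COL6A2 and MFAP4). FBLN2 was at 86 and 100, then 3428 and 980, then 210 and 94, a margin of 2.22. COL6A1 was at 1887 and 2798, then 918 and 822, then 1185 and 1887, a margin of 0.37. FBN2 was at the top level of 18734 on day 5 alone and at 1326 on day 7, near its 1185 on day 3.

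Markers of stromal cells were followed beside the matrix genes. Of the 14 stromal genes compared 0 were higher and 0 lower, their median difference was -0.95, and their summed value was 3071 and 3110 on days 2 and 3, 3109 and 6529 on days 5 and 7, and 30137 and 48447 on days 11 and 13. Of these 14 genes 9 are also in the interstitial list. Neither COL5A2 nor MFAP4 is among the 9. On days 2 and 3 the stromal genes ranged from DCN and LUM, listed at 0 on both days, to TAGLN at 1214 and 1324. In bulk RNA fewer cells of a type and less RNA per cell cannot be told apart, and the part of stromal cells in these values was not tested.

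Of 9 endothelial and blood genes compared EMCN and FLT1 were lower and 0 were higher. The summed value of the list was 526 and 462 on days 2 and 3, 277 and 445 on days 5 and 7, and 1851 and 5592 on days 11 and 13. These sums lean on few genes. The VEGF receptor KDR was at 252 and 240, then 42 and 270, then 574 and 823. The globin HBE1 was at 0 and 1, then 2 and 3, then 446 and 2968. The blood cell marker PTPRC was too low to be compared, at 18 on day 2 and listed at 0 on all sampled days from 3 to 13. FLT1, a VEGF receptor, was at 153 and 111, then 18 and 66, then 122 and 158. Guidance genes, grouped after their values were seen, had 5 lower of 27 and 0 higher. They were the semaphorins SEMA3A and SEMA6D, the plexins PLXNA1 and PLXNA2, and the co-receptor NRP2. SEMA3A was at 261 and 782, then 102 and 63, then 216 and 231, a margin of 1.08. Of 15 pluripotency genes, 10 cardiac and splanchnic genes and 4 trophoblast or amnion genes, 0 were higher and 0 lower. NES was the only neural gene of its list in the table, at 703 and 527 on days 5 and 7 between 919 on both days before and 320 and 296 after. The pluripotency list summed to 8400 and 4905 on days 5 and 7, below 12887 and 10436 before and above 2238 and 1552 after. Much of this sum was LIN28A, at 4862 and 2970 on days 5 and 7 after 2971 on both days before. POU5F1 had fallen from 2640 and 1280 to 440 and 88, and NANOG from 323 and 286 to 26 and 32.

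Of 22 genes of glutathione metabolism and the NRF2 response, GPX2 and HMOX1 were higher and GPX1 and GPX4 lower, a share near the background, and the median difference was -0.14. HMOX1, which degrades haem, was at 32 and 28, then 336 and 536, then 170 and 125, a margin of 0.98. GPX4, which reduces lipid peroxides, was at 420 and 428 on days 5 and 7 against 527 to 659 on the flanking days. Of 8 thyroid hormone genes, grouped after their values were seen, DIO2 and DIO3 were higher. DIO3, the deiodinase that inactivates thyroid hormone, was at 88 and 70, then 488 and 247, then 56 and 33, a margin of 1.48, and was at 345 on day 21. Of 12 retinoid genes STRA6, a retinol transporter, and ALDH1A3, which makes retinoic acid, were higher with margins of 0.10 and 0.18.

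Of 22 cholesterol genes compared, MVK, MVD, SQLE, LSS, CYP51A1, EBP and DHCR7 were lower and 0 were higher, against 6.98% lower over all genes, and 2 of the 22 had a difference above 0. LSS, the lanosterol synthase, was at 1044 and 980, then 545 and 612, then 1214 and 956, a margin of 0.64. MVK, the mevalonate kinase, was at 106 and 90, then 52 and 60, then 96 and 110, a margin of 0.58.

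Of 11 genes of the ATF4 stress response, CHAC1, ASNS, SHMT2, VLDLR and DDIT4 were lower and 0 higher, with a median difference of -0.92. VLDLR, a lipoprotein receptor, was at 280 and 418, then 48 and 40, then 82 and 100, a margin of 0.76. ASNS, the asparagine synthetase, was at 636 and 282, then 122 and 99, then 169 and 242, a margin of 0.47. DDIT4, an inhibitor of mTORC1, was at 80 and 69, then 41 and 36, then 92 and 125, a margin of 0.74. Its paralog DDIT4L was higher, at 14 and 12, then 72 and 74, then 14 and 9, a margin of 2.28.

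Of 16 genes of hypoxia and glycolysis ADM and EGLN3 were higher, and PDK1 and LDHA were lower. LDHA, the lactate dehydrogenase of glycolytic tissue, was at 1130 and 1022, then 444 and 304, then 589 and 695, a margin of 0.41. Of 10 p53 targets MDM2, GDF15 and TP53INP1 were higher, with margins from 0.19 to 0.49, and 0 were lower. Of 9 genes of insulin and FOXO signalling 0 were higher and 0 lower.

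Cell cycle genes were mostly low on day 7 but rarely met the rule. All 18 mitosis genes compared had a mean on days 5 and 7 below that of the flanking days, with a median difference of -0.88, yet only CCNB1 was lower on both days. Day 7 was the lowest of the 6 days for MKI67. This gene, a marker of cycling cells, was at 703 and 424, then 400 and 122, then 497 and 390. Of 17 S phase genes CDT1 and CCNE1 were lower and 0 higher, and the median difference was -0.46.

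Further families were counted after their values were seen. Of 35 lysosome genes 12 were higher, among them PSAP, LAMP1, CTSH and GALC, and 2 were lower, among them LIPA. GALC, the galactosylceramidase, was at 46 and 58, then 395 and 201, then 88 and 94, a margin of 1.09. LIPA, the lysosomal acid lipase, was at 138 and 123, then 48 and 32, then 140 and 192, a margin of 1.34. HEXA and GALNS, also counted as higher, had margins of 0.012 and 0.063 and were no longer higher when the libraries were rescaled. Of 72 nuclear genes of the respiratory chain and ATP synthase 13 were lower and 0 higher, with margins up to 0.44 for NDUFB1. The immune gene HLA-B was at 120 and 244, then 1555 and 804, then 286 and 286, a margin of 1.49. HLA genes are similar enough to share reads.

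Of 232 zinc finger genes named ZNF 40 were higher (17.2%) and 5 lower (2.2%). On chromosome 19 they were 22 higher of 92 compared, and 8 of the 14 compared between ZNF611 and ZNF813 (chr19:53207472-53994020 in the table) were higher and 1 lower. This interval was drawn from its first to its last higher gene, so its count is partly fixed by that choice. ZNF761 was at 70 and 123, then 402 and 438, then 178 and 92, a margin of 1.17. ZNF765, its neighbour, was at 70 and 60, then 160 and 151, then 78 and 55, a margin of 0.94. These genes are tandem copies with similar zinc finger exons, so reads may be shared among them and the 8 are not separate observations. The 4 MTRNR2L genes, near copies of the mitochondrial 16S ribosomal RNA, were all lower. MTRNR2L1 was at 388 and 294, then 94 and 166, then 281 and 396, and their values cannot be assigned to single genes.

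Days 0, 1, 9 and 21 were not used by the rule. On day 9, 749 of the 921 higher genes were already below both days of the stage and 438 were still above all flanking days. Of the 80 higher genes with a margin of 1, all 80 were below both days of the stage on day 9 and 59 were still above the flanking days. On day 0, 75 of the 80 were below both days of the stage, and ITGA6, SYT6 and MAP2K6 were above both. ITGA6, the laminin-binding integrin chain, was at 567 on day 0, at 227 and 220 on days 5 and 7, and at 56 to 94 on the flanking days. On day 21, 73 of the 80 were below both days of the stage, and IGFBP5 and ITIH5 stood above both. ITIH5, a hyaluronan-binding inhibitor, was at 146 and 51 on days 5 and 7 and at 462 on day 21. Of the 34 lower genes with a margin of 1, 18 were above both days of the stage on day 0 and 33 on day 21. The median of the 80 genes on the log2(value + 1) scale was 3.91 on day 0, 4.67 on day 3, 7.96 on day 5, 7.43 on day 7, 6.04 on day 9 and 4.52 on day 13.

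The first sampled day of the stage held the larger value for most of the 80 higher genes with a margin of 1. Of these, 57 were higher on day 5 than on day 7 and 21 the reverse, and a difference of at least 1 was found in 26 and 3. Over the 921 higher genes the counts were 472 and 418, and 63 and 16. Over all genes compared they were 5132 and 4702, and 735 and 878. NRCAM, a neural adhesion molecule chosen after its values were seen, was at 318 on day 5 and 36 on day 7. RSPO3 was the other way round, at 298 and 960. Of the 34 lower genes 20 were lower on day 7 and 10 on day 5.

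Length and base composition of the transcripts were set side by side. The median GC content was 48.9% for 910 higher genes found in GENCODE release 29, 50.7% for 696 lower genes and 49.8% over all 9944 genes found. The median transcript length was 1886 bases, 1528 bases and 1641 bases in the same order. Since the values had been adjusted for GC content, these are given beside the counts, and their part in them was not tested. Values at the shared top levels were reached by 26 of the higher and 10 of the lower genes.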

How the data were processed

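RNA-seq libraries of 10 days, 1 per day, were used. The authors aligned reads with Bowtie2 2.2.0 and RSEM 1.2.17 and normalized them for GC content, and the deposited values are a score in whole numbers, not counts. The submitters' notes list hg19 and mm10, and the table names no build, so its intervals are printed as given. Columns were matched to days by sample title.

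Computations used Python 3.11.15, numpy 2.4.6, pandas 2.3.3 and matplotlib 3.10.9 on log2(value + 1), for genes whose largest value over 6 days was 50 or more. The code was tested on simulated data. With 1 library per day no test or error was possible, so no p-value is given. Genes named were CST1, GPX2, the 30 higher and 20 lower genes of largest margin, members of gene lists meeting the rule, and genes at its edge. The members and lists were chosen with earlier results of these data known, and 9 lists and 3 families after values were seen. Alternatives were other minimum values, pseudocounts and scalings, day 9 as a flanking day, leaving out days and leaving out genes at the top levels. The values of some single genes are left out.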

Additional observations from a re-analysis of the deposited data

How the results depend on the processing

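Counts of higher and lower genes stayed within 1.5 times under a minimum of 20 or 100 or none, the largest value over all 10 days, scaling by the median of ratios, day 9 as a flanking day and without genes at the shared top levels. Scaling by the median of ratios kept 815 of the 921 higher and 668 of the 702 lower genes. A minimum of 200 left 425 higher and 294 lower genes, 49 and 15 of them with a margin of 1. Requiring the margin to exceed every difference within a step, chosen after seeing the data, left 212 and 147. With a margin of 1, day 9 as a flanking day left 52 higher genes, and a minimum of 20 or none gave 55 or 57 lower genes. Leaving out 1 day at a time, with fewer conditions to meet, gave 1052 to 1906 higher and 840 to 1748 lower genes, and 83 to 193 higher and 29 to 160 lower genes with a margin of 1. The libraries that moved the last 2 counts by over 1.5 times were day 5 (149 and 160), day 7 (193 and 138) and day 11 (137 and 56). Among the 158 named and grouped genes the margin changed sign for GALNS (-0.0058) and HEXA (-0.042) when the libraries were scaled by the median of ratios. A pseudocount of 0.1 moved the margins of 4 of them, and one of 5 those of 3, by more than their largest difference within a step. No paired analysis was possible because each day has 1 library. Depth is unknown, so low values carry an error that these data cannot give.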
